A study of Homo sapiens with 15 samples.

Results

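The G2/M and mitosis genes are 42 genes whose products carry a cell from G2 through mitosis to the separation of the daughter cells. They encode mitotic cyclins and kinases, the spindle checkpoint, kinetochore and spindle proteins, and the factors that transcribe them. They were found by matching the Ensembl identifiers of both count tables to a list of gene symbols. All 42 of the 42 were found among the 62700 genes of each table, each with 1 identifier. All 42 also passed the filter on low counts, which kept 14287 genes in the first table and 14574 in the second.

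RNA was measured in 143B, an established human osteosarcoma cell line, in 15 libraries, with 3 for each of 5 conditions. The non-OSC libraries came from adherent 143B cells in serum-containing DMEM, and the OSC libraries from 143B cells grown as tumorspheres, in serum-free DMEM/F12 with B27 supplement, EGF and basic FGF. The shCtrl, shPDK1#1 and shPDK1#2 libraries came from tumorsphere cultures of 143B cells that had been infected with a lentivirus carrying a control vector or 1 of 2 short hairpins against PDK1, a kinase that inhibits pyruvate dehydrogenase. Attachment and medium differed together between OSCs and non-OSCs and cannot be told apart, and 1 cell line gives no spread between tumors. The 2 tables were made separately, so levels are compared only within a table.

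Mitosis is driven by CDK1 bound to cyclin A or cyclin B. Polo and aurora kinases build the spindle, the checkpoint holds the anaphase-promoting complex (APC/C) until every chromosome is attached, and CDC20 and UBE2C then let the APC/C mark securin and the cyclins for destruction. Most of these genes are transcribed late in the cycle by the MuvB complex with MYBL2 and FOXM1, and are kept off in G0 and G1 by the DREAM complex, which binds the cell cycle genes homology region (CHR) of their promoters, often downstream of CCAAT boxes.

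The library totals ranged from 7992499 to 11256536 counts, and PDK1 mRNA was lowest where the labels place the hairpins. In CPM, the counts of a gene scaled to one common library total, it lay between 44.4 and 46.7 CPM in shCtrl, between 27.3 and 29.0 CPM with shPDK1#1 and between 18.3 and 21.5 CPM with shPDK1#2, and it was higher in OSCs (67.5 to 73.6 CPM) than in non-OSCs (42.9 to 51.6 CPM). The osteoblast lineage genes COL1A1, RUNX2 and SPP1 were present, whereas SP7 and IBSP, which mark committed osteoblasts, were at 0 or 1 counts. The summed level of the 8 osteoblast lineage markers lay between 540 and 586 CPM in non-OSCs and between 1529 and 1640 CPM in OSCs, where SPP1 and COL1A1 were higher (log2 fold changes 2.35 and 1.34) and RUNX2 was lower (-1.11). It lay between 2322 and 2414 CPM in shCtrl, between 2594 and 2623 CPM under shPDK1#1 and between 3650 and 3799 CPM under shPDK1#2. Most of this sum came from COL1A1 and SPP1, with means of 1057 and 512 CPM in OSCs. ALPL, COL1A2 and BGLAP had means of at most 2.66 CPM in every condition. RUNX2 had a mean of 17.2 CPM in shCtrl and 14.7 CPM under shPDK1#2, where the sum was higher. Of the 4 epithelial markers, CDH1 was at 0 or 1 counts, and the summed level of the list lay between 1097 and 1227 CPM in non-OSCs, between 292 and 302 CPM in OSCs and between 330 and 475 CPM in the hairpin table. Most of that sum came from KRT18, with a mean of 1044 CPM in non-OSCs and 271 CPM in OSCs. The 4 white blood cell markers summed to at most 2.77 CPM and the 3 endothelial markers to at most 1.85 CPM. The part of these lists in the results below was not tested.

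The promoters of these genes are shown first, since the members share letters there that the choice of genes did not use. RefSeq promoters (GRCh38.p14, 250 bases before to 50 bases after the first listed start of each gene) were found for 36 of the 42 members. UBE2C, FOXM1, BIRC5, TTK, TPX2 and AURKA had no entry. The CHR was searched as TTTGAA or TTCGAA and the CCAAT box as CCAAT, on both strands, and matches of the different motifs may overlap. A CHR match was present in 25 of the 36 member promoters (69.4%) against 16.6% of the 27305 promoters in the table. A CCAAT match was present in 69.4% against 35.7%, and both were present in 19 of the 36 (52.8%) against 6.58%. E2F site letters, searched as TTTGGCGC or TTTCGCGC, were in 2 of the 36 (5.56%) against 1.18%. A CCAAT match upstream of a CHR match, with both starting within 100 bases before the start, was found in 10 of the 36 (27.8%) against 0.674% of all promoters. These shares are descriptions of letters and not of binding. Of those 10 promoters, 5 are printed below. They belong to a set of genes picked by hand for display, which left out HMMR and SPC25. Within that set, only promoters whose 100 bases before the start held no more than 30 bases of annotated exon were kept. They are written 5′ to 3′ on the strand of the gene, with the CHR and CCAAT matches in capitals:
CDC20 (chr1:43358881-43358980, plus strand): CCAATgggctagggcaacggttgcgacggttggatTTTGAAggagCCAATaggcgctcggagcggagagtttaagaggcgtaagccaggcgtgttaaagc
CCNB2 (chr15:59105046-59105145, plus strand): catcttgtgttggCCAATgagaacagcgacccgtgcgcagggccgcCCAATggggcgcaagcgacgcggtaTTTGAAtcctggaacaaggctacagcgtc
MKI67 (chr10:128126424-128126523, minus strand): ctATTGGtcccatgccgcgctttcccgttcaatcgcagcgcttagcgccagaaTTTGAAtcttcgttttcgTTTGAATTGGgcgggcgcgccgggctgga
KIF4A (chrX:70290004-70290103, plus strand): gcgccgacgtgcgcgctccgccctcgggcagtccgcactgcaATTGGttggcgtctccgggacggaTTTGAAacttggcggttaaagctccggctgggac
KIF11 (chr10:92593030-92593129, plus strand): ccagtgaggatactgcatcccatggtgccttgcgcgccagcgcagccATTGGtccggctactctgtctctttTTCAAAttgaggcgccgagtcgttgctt

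In MKI67 a CHR match and a CCAAT match share letters, and the printed stretches of CDC20 and CCNB2 each hold 2 CCAAT matches. Those of KIF4A and KIF11 carry 1 match of each kind. These 5 genes did not move alike: CDC20 and CCNB2 passed the test in OSCs but not with shPDK1#2, MKI67 was lower in both comparisons, and KIF4A and KIF11 passed with shPDK1#2 but not in OSCs. The differences between these patterns were not tested. Among the members lower in OSCs, 13 of 22 promoters (59.1%) held a CHR match, and among those not past the threshold there, 12 of 14 (85.7%) did. In 43 promoters of G1/S and DNA replication genes, 3 (6.98%) held a CHR match and 13 (30.2%) held the E2F letters.

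Per base of exon, UBE2C and CDC20 had the highest levels of the 42 genes in every condition. UBE2C is the E2 enzyme that delivers the first ubiquitin for the APC/C, and CDC20 is the activator that brings its substrates. On the length-adjusted scale (RPKM, computed from the exon union), UBE2C had 131 RPKM in non-OSCs and CDC20 had 193 RPKM, whereas in OSCs the order was exchanged, with 242 RPKM for UBE2C and 111 RPKM for CDC20. UBE2C was also first in shCtrl (204 RPKM), with shPDK1#1 (205 RPKM) and with shPDK1#2 (162 RPKM against 156 RPKM for CDC20, a difference smaller than the SD of CDC20). TPX2, a spindle assembly factor that activates AURKA, came next in every condition, with 73.3 RPKM in OSCs and 110 RPKM in non-OSCs. CDC25C, a phosphatase that switches on CDK1, had the lowest level in every condition, between 4.12 and 5.78 RPKM. By counts, the members ranged from 103 (CDC25C) to 7124 (MKI67) in a library, so none was near the limit of detection. The median coefficient of variation between libraries of a condition was between 2.85% (shCtrl) and 5.90% (non-OSC) over the members.

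**Figure D1:**
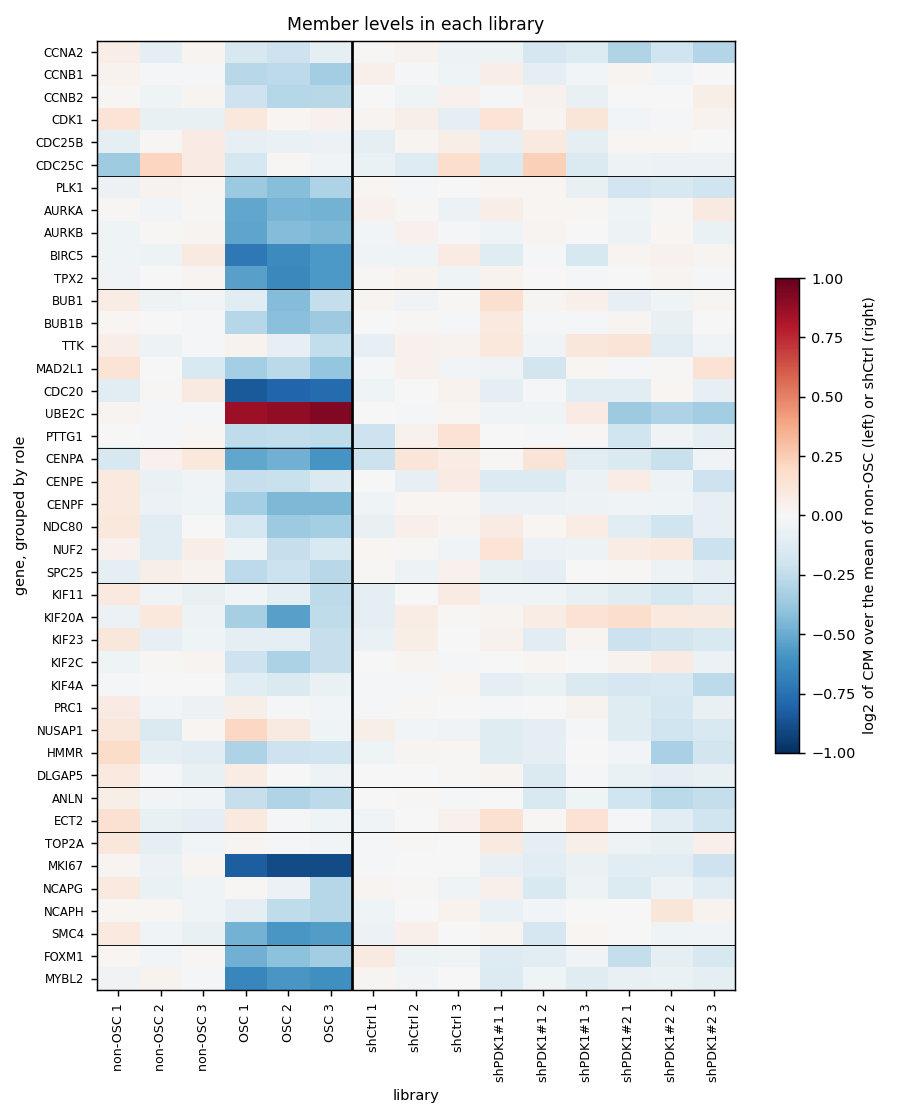
Level of each of the 42 genes (rows, grouped by role) in each of the 15 libraries (columns), as log2 of the CPM over the mean of the non-OSC libraries for the left table and over the mean of the shCtrl libraries for the right table. UBE2C is red and CDC20 and MKI67 are dark blue in all 3 OSC libraries. The right table is paler, with UBE2C and CCNA2 blue in all 3 shPDK1#2 libraries and HMMR about as blue in shPDK1#2 replicate 2.

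In the comparison of OSCs with non-OSCs, which asks what distinguishes tumorspheres from adherent cells, 26 of the 42 genes were lower in OSCs, 1 was higher and 15 did not pass an adjusted p of 0.05. Differences were tested with edgeR's quasi-likelihood test, which is two-sided, with Benjamini-Hochberg adjustment over all genes tested, and edgeR adjusted p below means this value. The labels do not say that replicates were separate cultures, so p-values measure the spread between these libraries, which may be technical. Across all 14287 genes tested, 63.9% passed, 32.4% being higher and 31.5% lower, against 64.3% of the members in either direction. The share of members called was therefore near the background, while 61.9% of the members were lower. The median log2 fold change was -0.25 over the members and -0.01 over all genes. The libraries of the 2 conditions did not overlap for 29 of the 42 genes, against 66.9% of all genes. In the same comparison 2 of the 3 epithelial markers tested were lower, and of the 4 osteoblast lineage markers tested 2 were higher and 1 was lower. The part of these markers was not tested. In bulk RNA, fewer cells in G2 and mitosis cannot be told apart from less RNA of these genes per cell.

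UBE2C, at chr20:45812576-45816957 (plus strand, 7 exon blocks of 1286 bases in all), was the 1 member that rose. It had 172, 166 and 166 CPM in the non-OSC libraries and 304, 310 and 320 CPM in the OSC libraries. All 3 OSC libraries lay above all 3 non-OSC libraries, and the means differed 1.85-fold (log2 fold change 0.89 ± 0.05 SE, edgeR adjusted p = 3.8e-13). UBE2C made up 2.50% ± 0.02 (SD, n = 3) of the summed CPM of the 42 genes in non-OSCs and 5.72% ± 0.22 in OSCs. It is a short gene, and of the 423 protein-coding genes tested with at most 1500 exon bases, 23.4% were higher and 41.6% were lower in OSCs, with a median log2 fold change of -0.17.

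CDC20 (chr1:43358981-43363203, plus strand), which acts with UBE2C at the APC/C, moved the other way. It had 359, 391 and 413 CPM in the non-OSC libraries and 216, 223 and 228 CPM in the OSC libraries, with no overlap. Its log2 fold change was -0.80 ± 0.05 (SE, edgeR adjusted p = 1.1e-11), 0.574 of the non-OSC level. The other genes of the spindle checkpoint and APC/C group lay between them. BUB1 and BUB1B, kinases and scaffolds of the checkpoint, MAD2L1, its inhibitor of CDC20, and PTTG1, the securin that guards cohesin, were lower, with log2 fold changes between -0.36 and -0.25. BUB1, with 123, 114 and 115 CPM in non-OSCs and 108, 86.8 and 99.4 CPM in OSCs, had a log2 fold change of -0.26 ± 0.07 (SE, edgeR adjusted p = 0.0027). TTK, the kinase at the head of the checkpoint, did not pass (-0.10, 95% interval -0.27 to 0.08).

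MKI67 (chr10:128096659-128126423, minus strand), which coats mitotic chromosomes and is read in pathology as the Ki-67 proliferation antigen, had the largest fall. It had 687, 644 and 686 CPM in non-OSCs and 379, 362 and 362 CPM in OSCs. The OSC libraries were close to each other and all below the non-OSC libraries, with a log2 fold change of -0.87 ± 0.04 (SE, edgeR adjusted p = 1.1e-13). The other chromosome genes were split. SMC4, the shared ATPase of the condensins, had 307, 280 and 272 CPM against 207, 191 and 194 CPM, a log2 fold change of -0.54, and the condensin I subunit NCAPH fell by 0.21. The NCAPH call was lost in 4 of 12 alternatives, namely library size alone and the fits without non-OSC replicate 2, OSC replicate 2 or OSC replicate 3, with an edgeR adjusted p of up to 0.114. The condensin I subunit NCAPG did not pass (-0.11, 95% interval -0.26 to 0.05). TOP2A, the topoisomerase that untangles sister chromatids, had 397, 342 and 361 CPM in non-OSCs and 373, 363 and 360 CPM in OSCs, which overlapped. Its log2 fold change was -0.01 with a 95% interval from -0.11 to 0.10, so that MKI67 and TOP2A, which are both used as proliferation markers, gave unlike values in the same libraries.

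**Figure D2:**
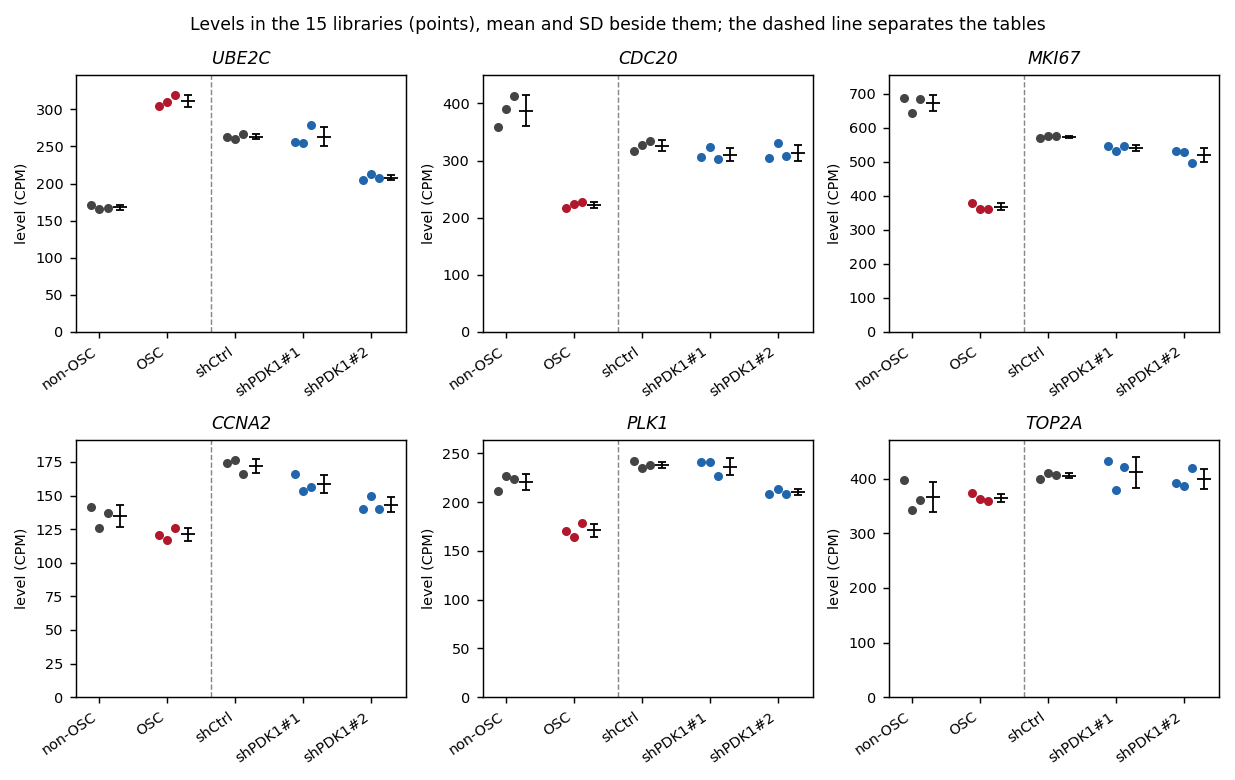
CPM of 6 members in the 15 libraries, with each library as a point and the mean and SD of the 3 libraries of a condition beside it. The dashed line separates the 2 tables, which are not compared with each other. UBE2C is higher and CDC20, MKI67 and PLK1 are lower in OSCs than in non-OSCs without overlap, TOP2A overlaps in every comparison, and UBE2C, CCNA2 and PLK1 are lower with shPDK1#2 than in shCtrl.

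All 5 genes grouped with the polo and aurora kinases fell, against 31.5% of all genes tested. BIRC5, the survivin subunit of the chromosomal passenger complex, had 78.2, 77.9 and 85.8 CPM in non-OSCs and 49.0, 51.8 and 54.1 CPM in OSCs, without overlap (log2 fold change -0.64 ± 0.07 SE, edgeR adjusted p = 8.0e-08). TPX2 fell by 0.59, and AURKA, which drives centrosome maturation, had 204, 198 and 204 CPM against 141, 146 and 146 CPM, a log2 fold change of -0.49 ± 0.05 (SE, edgeR adjusted p = 2.2e-08). AURKB, the kinase of the passenger complex that corrects faulty attachments, fell by 0.47. PLK1, the polo kinase needed for mitotic entry and centrosome maturation, had 212, 226 and 224 CPM against 170, 165 and 178 CPM, a log2 fold change of -0.37 ± 0.05 (SE, edgeR adjusted p = 2.1e-06). For these 5 genes the 3 OSC libraries lay below the 3 non-OSC libraries.

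The cyclins fell by less, and CDK1 and its phosphatases did not pass the test. CCNB1, cyclin B1, had 207, 199 and 200 CPM in non-OSCs and 167, 169 and 159 CPM in OSCs, a log2 fold change of -0.29 ± 0.05 (SE, edgeR adjusted p = 3.0e-05), and CCNB2, cyclin B2, fell by 0.25. CCNA2, cyclin A2, which acts from S phase to early mitosis, had 141, 126 and 137 CPM against 121, 117 and 126 CPM. These ranges touched, and the log2 fold change was -0.16 ± 0.06 (SE, edgeR adjusted p = 0.025). This call was lost in 5 of 12 alternatives, with an edgeR adjusted p of 0.132 without OSC replicate 2. CDK1 had 133, 115 and 115 CPM in non-OSCs and 130, 123 and 125 CPM in OSCs, with a log2 fold change of 0.05 and a 95% interval from -0.08 to 0.19. It passed, at 0.13, only without non-OSC replicate 1, the library with the highest CDK1 level of the 6. CDC25B and CDC25C, the phosphatases that activate CDK1, had log2 fold changes of -0.07 and -0.05.

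Of the 6 centromere and kinetochore genes 4 were lower (66.7%), and of the 9 kinesin and spindle genes 3 were lower (33.3%). Of all genes tested 31.5% were lower, so the kinesin and spindle share was near the background. CENPA, the histone H3 variant of centromeres, fell by 0.53, and CENPF, a kinetochore protein that accumulates in G2, had 376, 337 and 341 CPM in non-OSCs and 277, 257 and 258 CPM in OSCs (log2 fold change -0.41 ± 0.05 SE, edgeR adjusted p = 3.2e-07). NDC80, the microtubule-binding subunit of the outer kinetochore, fell by 0.29 and the kinetochore motor CENPE fell by 0.20. The CENPE call was lost without non-OSC replicate 1 and without OSC replicate 2, with an edgeR adjusted p of up to 0.065. The NDC80 partners NUF2 and SPC25 did not pass, with log2 fold changes of -0.15 and -0.25 and, for SPC25, an edgeR adjusted p of 0.053. Among the motors, KIF20A, a kinesin of the central spindle, had 80.3, 89.8 and 80.8 CPM against 66.4, 57.5 and 70.1 CPM, a log2 fold change of -0.37 ± 0.08 (SE, edgeR adjusted p = 0.00021). KIF2C, a microtubule depolymerase, fell by 0.25 and the spindle protein HMMR fell by 0.24. The HMMR call was lost without non-OSC replicate 1 and without OSC replicate 1, with an edgeR adjusted p of up to 0.130. KIF11, the motor that separates the poles, KIF23 and PRC1 of the central spindle, KIF4A, NUSAP1 and DLGAP5 did not pass, with log2 fold changes between -0.14 and 0.08. In cytokinesis, the actin and septin scaffold ANLN had 315, 297 and 296 CPM against 257, 246 and 253 CPM, a log2 fold change of -0.27, and the RhoA activator ECT2 had a log2 fold change of 0.01 (95% interval -0.13 to 0.15).

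Both transcription factors of the group fell, against 31.5% of all genes tested. MYBL2 (B-MYB), the factor that joins MuvB in S phase, had 188, 197 and 191 CPM in non-OSCs and 122, 128 and 126 CPM in OSCs, a log2 fold change of -0.61 ± 0.05 (SE, edgeR adjusted p = 9.7e-10). FOXM1, the forkhead factor of G2 genes, had 174, 168 and 173 CPM against 123, 129 and 135 CPM, a log2 fold change of -0.41 ± 0.05 (SE, edgeR adjusted p = 7.6e-07). Neither overlapped. Of the exon bases of FOXM1, 15.9% overlap ITFG2 on the other strand, and the strand setting of the counting is not given in the sources used here, so reads of the 2 genes cannot be told apart there. The same holds for smaller or larger parts of PLK1 (12.8%), CCNA2 (9.24%, EXOSC9), SMC4 (22.0%, IFT80 and TRIM59) and NCAPG (33.7%, LCORL). For NUSAP1 and PRC1, 86.8% and 57.6% of the exon bases lie within another annotated gene on the same strand, which makes their counts uncertain.

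**Figure D3:**
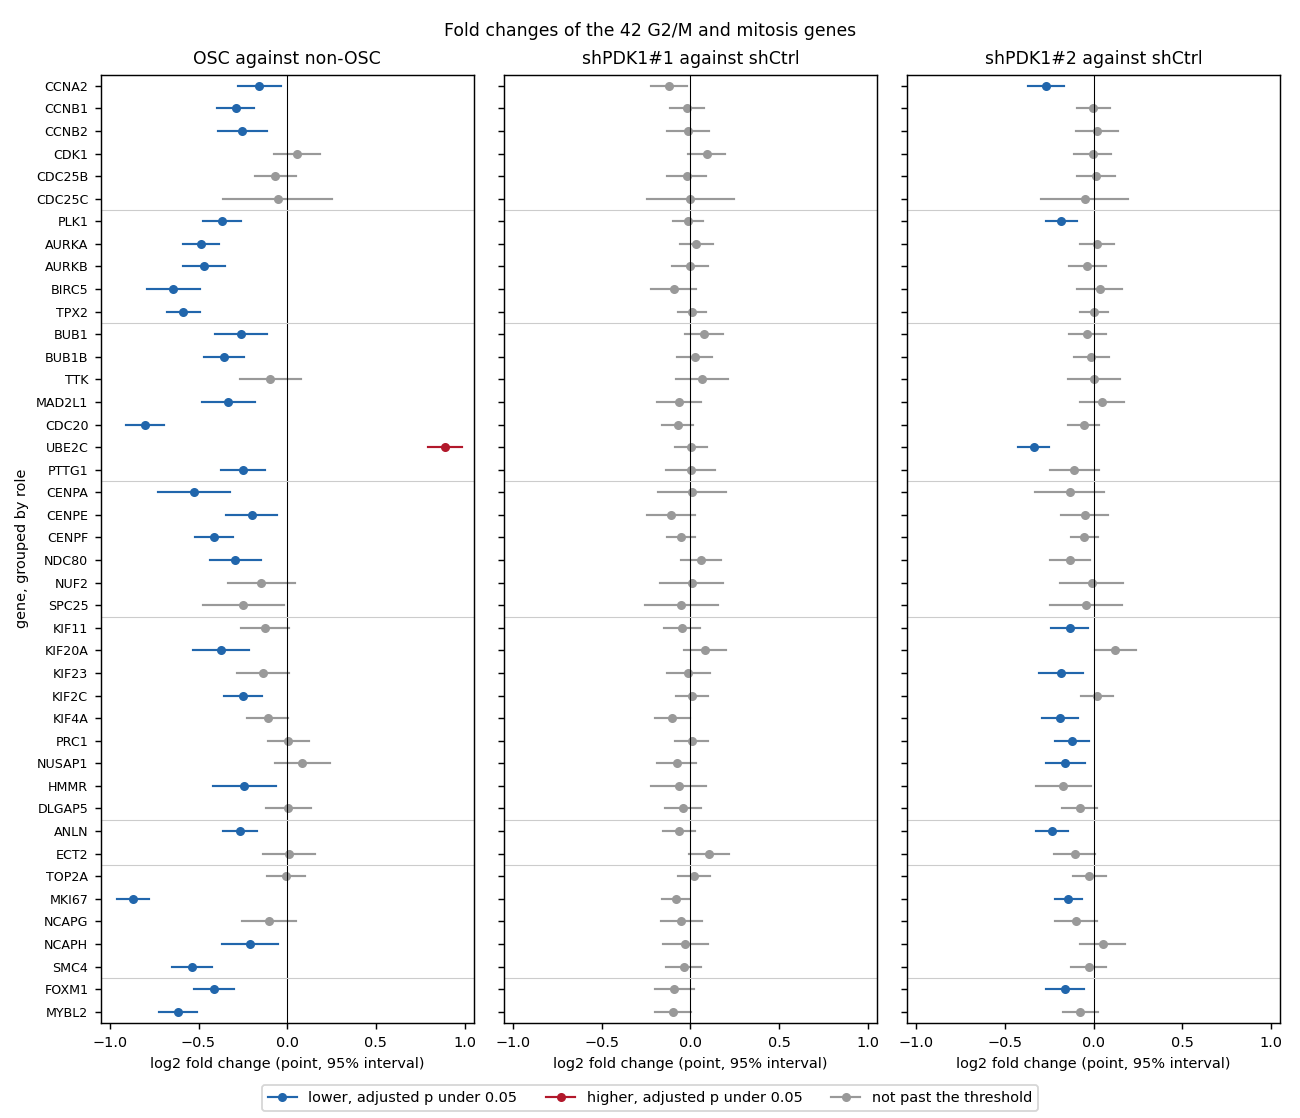
Log2 fold change of each of the 42 genes (rows, grouped by role) in OSCs against non-OSCs and with each hairpin against shCtrl, as points with 95% intervals, with colors for genes past an edgeR adjusted p of 0.05. The left panel runs from -0.87 (MKI67) to 0.89 (UBE2C), the middle panel has 0 colored genes, and the right panel has 11 that were lower, led by UBE2C at -0.34.

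With shPDK1#1, the weaker of the hairpins on PDK1 mRNA, 0 of the 42 genes passed the test by edgeR. Of the 14574 genes tested 3.06% passed by edgeR, 1.62% being higher and 1.44% lower. By DESeq2 0 of the members passed, against 408 of the 10899 genes to which it gave an adjusted p. At an unadjusted p under 0.05 by edgeR there were 3 of the 42 members, against 2107 of the 14574 genes tested. The 3 were CCNA2, MKI67 and KIF4A, all with lower means. The smallest edgeR adjusted p was 0.218, for CCNA2, which had 174, 176 and 166 CPM in shCtrl and 166, 153 and 156 CPM with shPDK1#1 (log2 fold change -0.12 ± 0.05 SE). The median log2 fold change of the members was -0.02, and the 95% intervals of 41 of the 42 genes lay within 0.25 of 0 on the log2 scale. UBE2C, with 262, 260 and 267 CPM in shCtrl and 256, 255 and 279 CPM, had a log2 fold change of 0.00 with an interval from -0.08 to 0.09. CDK1 was at 0.09 and CCNB1 at -0.02, neither past the threshold. The libraries did not overlap for 6 members, against 19.3% of all genes.

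With shPDK1#2, which left the least PDK1 mRNA, 11 of the 42 genes fell and 0 rose by edgeR, against 26.2% of all genes tested, 14.2% being lower and 12% higher. DESeq2 called 8 members lower and 0 higher, against 3107 of the 14572 genes to which it gave an adjusted p. The members called were 26.2% of the 42, the same share as among all genes, and all were in 1 direction. At an unadjusted p under 0.05 by edgeR there were 14 of the 42 members, against 5273 of the 14574 genes tested. Of these 14 only KIF20A had a higher mean. The changes were small, with log2 fold changes from -0.34 to -0.12 among the genes that passed, a median of -0.05 over the members and of 0.01 over all genes. The libraries did not overlap for 16 of the 42 genes, against 39.5% of all genes. Both hairpins were compared with the same 3 shCtrl libraries, so the values of the 2 comparisons are not independent. The call count was 7 without shCtrl replicate 2, 7 without shPDK1#2 replicate 2 and 7 with upper quartile scaling, where KIF20A passed as higher and 6 genes passed as lower. Over all genes these 3 fits called 3031 of 14856, 3340 of 14839 and 3992 of 14574 genes. Of the 11 genes, CCNA2, PLK1, UBE2C, KIF4A, ANLN and MKI67 passed in all 16 alternatives. In the same comparison 2 of the 3 epithelial markers tested and 3 of the 5 osteoblast lineage markers tested were higher, and their part in these values was not tested.

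UBE2C had the largest fall. It had 262, 260 and 267 CPM in shCtrl and 205, 212 and 207 CPM with shPDK1#2. All shPDK1#2 libraries lay below all shCtrl libraries, with a log2 fold change of -0.34 ± 0.04 (SE, edgeR adjusted p = 1.2e-06), 0.791 of the control level. Its share of the summed CPM of the members was 3.82% ± 0.06 (SD, n = 3) in shCtrl, 3.88% ± 0.18 with shPDK1#1 and 3.19% ± 0.06 with shPDK1#2. CDC20, its partner at the APC/C, had 317, 327 and 335 CPM in shCtrl and 304, 330 and 308 CPM, which overlapped, and its log2 fold change was -0.06 with a 95% interval from -0.14 to 0.03.

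Among the cyclins and the polo and aurora kinases, CCNA2 and PLK1 passed the test. CCNA2 had 174, 176 and 166 CPM in shCtrl and 140, 150 and 140 CPM with shPDK1#2, without overlap, a log2 fold change of -0.27 ± 0.05 (SE, edgeR adjusted p = 0.00016). CCNB1 had 241, 230 and 225 CPM and 236, 228 and 232 CPM, a log2 fold change of -0.00 with a 95% interval from -0.10 to 0.09, and CDK1 had 143, 145 and 132 CPM and 138, 138 and 143 CPM, also -0.00. PLK1 had 242, 235 and 238 CPM in shCtrl and 209, 214 and 208 CPM with shPDK1#2, a log2 fold change of -0.18 ± 0.04 (SE, edgeR adjusted p = 0.0020). AURKA and AURKB had log2 fold changes of 0.02 and -0.04, and TPX2 of 0.00, none past the threshold.

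Of the 9 kinesin and spindle genes, 5 fell with shPDK1#2 by edgeR (55.6% against 14.2% of all genes). By DESeq2 only KIF4A and KIF23 of these 5 passed, and with upper quartile factors only KIF4A did. These were KIF4A, a motor that carries PRC1 along the spindle midzone, PRC1 itself, which bundles midzone microtubules, KIF23, the motor of the centralspindlin complex, KIF11 and NUSAP1. KIF4A had 146, 146 and 150 CPM in shCtrl and 131, 133 and 123 CPM with shPDK1#2, without overlap, a log2 fold change of -0.19 (edgeR adjusted p = 0.0045). KIF23 had 83.3, 91.2 and 86.8 CPM against 75.2, 76.8 and 78.3 CPM, a log2 fold change of -0.18, and PRC1 had 163, 166 and 165 CPM against 152, 146 and 156 CPM, a log2 fold change of -0.12 with an edgeR adjusted p of 0.048. Of the 16 alternatives, KIF4A passed in all 16, KIF23 in 11, NUSAP1 in 9, KIF11 in 6 and PRC1 in 5. The counts of NUSAP1 and PRC1 are also those that share exon bases with other genes. KIF20A, which had 91.0, 102 and 97.8 CPM in shCtrl and 110, 104 and 103 CPM with shPDK1#2, was the member with the highest log2 fold change, 0.12 ± 0.06 (SE, edgeR adjusted p = 0.11).

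ANLN, which builds the contractile ring with RhoA, fell as well. It had 250, 253 and 249 CPM in shCtrl and 218, 208 and 213 CPM with shPDK1#2, a log2 fold change of -0.23 ± 0.04 (SE, edgeR adjusted p = 0.00020). MKI67 had 570, 575 and 576 CPM against 533, 530 and 496 CPM, a log2 fold change of -0.14 ± 0.04 (SE, edgeR adjusted p = 0.0045), and FOXM1 had 164, 149 and 150 CPM against 131, 145 and 138 CPM, a log2 fold change of -0.16 ± 0.05 (SE, edgeR adjusted p = 0.022). Both sets of libraries were separate, although the FOXM1 ranges came close and FOXM1 passed in 12 of the 16 alternatives. TOP2A, with 400, 410 and 407 CPM and 393, 386 and 419 CPM, overlapped (log2 fold change -0.02, 95% interval -0.12 to 0.07). MYBL2 had 137, 132 and 135 CPM and 128, 129 and 126 CPM, without overlap, and its log2 fold change of -0.08 did not pass. The centromere and kinetochore group had 0 of 6 genes past the threshold by edgeR, against 26.2% of all genes. At an unadjusted p under 0.05 by edgeR it had 1 gene, NDC80, against 5273 of the 14574 genes tested.

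The hairpins were also compared directly, in the same fit of the 9 libraries. In this contrast 7 of the 42 genes were lower with shPDK1#2 than with shPDK1#1 and 0 were higher by edgeR, against 16.3% of all genes, 9.78% being lower and 6.5% higher. DESeq2 called 5 members lower and 0 higher, against 1946 of the 12594 genes to which it gave an adjusted p. At an unadjusted p under 0.05 by edgeR there were 10 of the 42 members, against 4123 of the 14574 genes tested. Of these 10, BIRC5 was higher. Of the calls over all genes, 39.9% were higher, and with upper quartile scaling 54.7% were. UBE2C led again, with 256, 255 and 279 CPM under shPDK1#1 and 205, 212 and 207 CPM under shPDK1#2, a log2 difference of -0.34 ± 0.04 (SE, edgeR adjusted p = 2.1e-06). ECT2 had 133, 121 and 133 CPM against 118, 111 and 105 CPM, a log2 difference of -0.21 (edgeR adjusted p = 0.0082), and NDC80 had 111, 106 and 110 CPM against 96.5, 90.9 and 98.6 CPM, a log2 difference of -0.19 (edgeR adjusted p = 0.014). KIF23, ANLN, PLK1 and CCNA2 followed, between -0.17 and -0.14. The libraries did not overlap for 14 of the 42 genes, against 30.7% of all genes. The count fell to 2 without shPDK1#1 replicate 3, to 4 without shPDK1#1 replicate 1 and to 4 without shPDK1#2 replicate 3. Over all genes these fits called 1721 of 14841, 1983 of 14883 and 1897 of 14842 genes. UBE2C and PLK1 passed in all 16 alternatives, and ECT2, NDC80 and ANLN in 14 each. CCNA2 passed in 5 and KIF23 in 4, and DESeq2 called neither.

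The OSC and shPDK1#2 comparisons share no libraries, and their members can be set side by side. Of all 42 members, 26.2% were lower with shPDK1#2 and 61.9% were lower in OSCs. Of the 26 members lower in OSCs, 5 (19.2%) were also lower with shPDK1#2, namely ANLN, CCNA2, FOXM1, MKI67 and PLK1, which is 45.5% of the 11 that were lower with the hairpin. A further 5 of those 11 (KIF11, KIF23, KIF4A, NUSAP1 and PRC1) did not pass in OSCs. UBE2C was the member that passed in opposite directions, 0.89 in OSCs and -0.34 with shPDK1#2. The remaining 21 members lower in OSCs, among them CDC20, BIRC5, AURKA and MYBL2, did not pass with shPDK1#2, and 10 members passed in neither comparison.

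**Figure D4:**
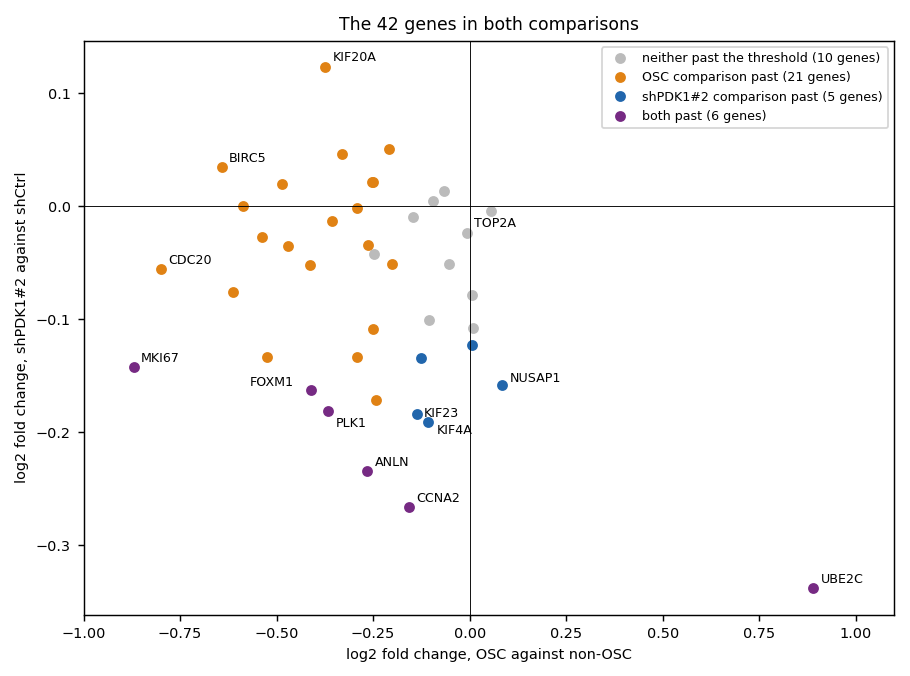
Log2 fold change of each of the 42 genes in OSCs against non-OSCs (horizontal axis) and with shPDK1#2 against shCtrl (vertical axis, on a finer scale), with colors for the comparisons in which a gene passed an edgeR adjusted p of 0.05. UBE2C stands alone at the lower right (0.89 and -0.34), CDC20 and BIRC5 lie far left near 0 on the vertical axis, and 5 genes that passed in both lie at the lower left.

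The summed level of the 42 genes was lower in OSCs and, by less, with shPDK1#2. It was 6714 ± 142 CPM in non-OSCs and 5446 ± 94.7 CPM in OSCs (SD, n = 3 each), with no overlap. In the hairpin table shCtrl had 6893 ± 62.5 CPM, whereas shPDK1#1 had 6780 ± 111 CPM and shPDK1#2 had 6523 ± 34.0 CPM. The shPDK1#2 libraries, between 6484 and 6547 CPM, lay below all shCtrl libraries, which lay between 6822 and 6941 CPM, and those with shPDK1#1, between 6657 and 6872 CPM, overlapped shCtrl.

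Genes that act earlier in the cycle moved by other amounts. The 48 genes of G1/S and DNA replication load and fire the origins and supply nucleotides. In OSCs 48 of 48 were lower, against 31.5% of all genes, with a median log2 fold change of -0.81. They were led by UHRF1, which helps to maintain DNA methylation, at -1.66, PRIM1, a primase subunit, at -1.51, and GINS2, a subunit of the replicative helicase, at -1.42. With shPDK1#1, 1 of the 48 was lower and 0 were higher (2.08% against 3.06% of all genes). With shPDK1#2, 20 were higher and 1 was lower, 43.8% of the list against 26.2% of all genes, with a median of 0.17, led by CDC25A, which activates CDK2, at 0.71, the helicase subunit MCM2 at 0.58 and GINS2 at 0.52, and between the hairpins 27 (56.2% against 16.3% of all genes) were higher with shPDK1#2 and 0 were lower.

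The ratio of the summed CPM of the 42 G2/M and mitosis genes to that of the 48 G1/S genes was between 1.35 and 1.42 in the non-OSC libraries and between 2.02 and 2.13 in the OSC libraries. It was between 1.98 and 2.01 in shCtrl, between 1.97 and 2.04 with shPDK1#1 and between 1.64 and 1.66 with shPDK1#2. The OSC libraries were thus all higher than the non-OSC libraries, and the shPDK1#2 libraries were all lower than those of the other 2 hairpin groups. The ratio depends on both sums. The 48 G1/S genes summed to 4837 to 4906 CPM in non-OSCs and 2609 to 2660 CPM in OSCs. Their sum was 3433 to 3487 CPM in shCtrl, 3363 to 3387 CPM with shPDK1#1 and 3913 to 3991 CPM with shPDK1#2. 

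**Figure D5:**
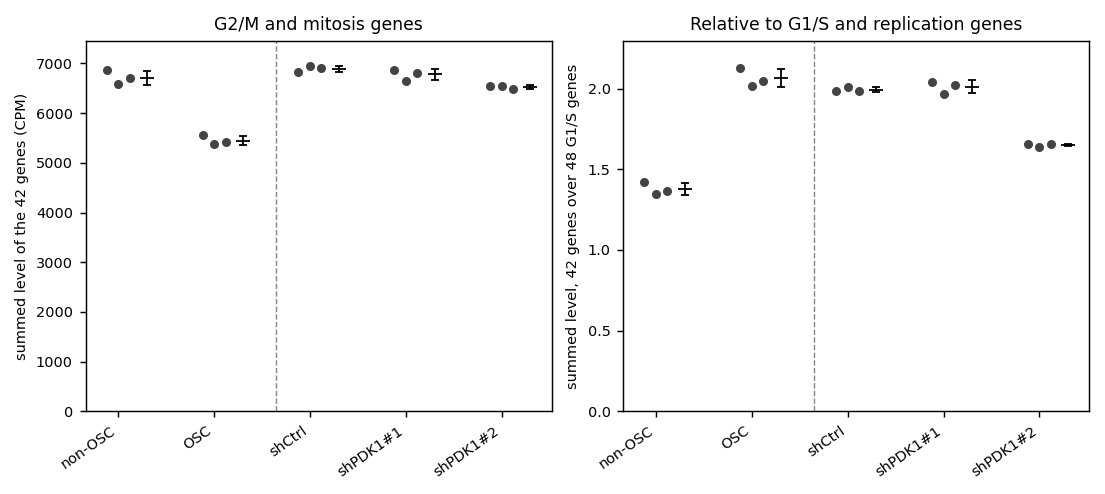
Summed CPM of the 42 genes (left) and its ratio to the summed CPM of 48 G1/S and DNA replication genes (right) in each of the 15 libraries (points), with the mean and SD of the 3 libraries of each condition and a dashed line between the tables. In OSCs the sum is lower and the ratio higher than in non-OSCs, and with shPDK1#2 the ratio lies at 1.64 to 1.66, below shCtrl and shPDK1#1.

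Other genes of mitosis and its control were listed separately from the 42. Of 78 further mitosis genes, 42 were lower and 5 were higher in OSCs, 60.3% of the list against 63.9% of all genes. By direction, 53.8% were lower against 31.5% of all genes, and 6.41% were higher against 32.4%. The median log2 fold change was -0.22, and the list was led by PSRC1, CENPM and HASPIN at -1.13, -1.11 and -0.99. With shPDK1#1, 1 of the 78 passed (1.28% against 3.06%), the spindle pole gene ASPM at -0.21. With shPDK1#2, 11 were lower and 7 higher, 23.1% of the list and so below the 26.2% of all genes, with CKAP2L, a spindle protein, at -0.45 and BORA, an activator of AURKA, at 0.41, and between the hairpins 3 were lower and 4 higher (8.97% against 16.3%). Of 24 genes of the APC/C and mitotic exit, 13 were lower and 5 higher in OSCs (75% against 63.9% of all genes). By direction, 54.2% were lower against 31.5% of all genes, and 20.8% were higher against 32.4%. They were led by ANAPC15, CDC26 and ANAPC1 at -1.11, -0.76 and -0.71. UBE2S, the E2 enzyme that extends the ubiquitin chains begun by UBE2C, was the 1 gene of this list to pass with shPDK1#1 (142 CPM in shCtrl and 121 CPM with the hairpin, log2 fold change -0.24 ± 0.07 SE, edgeR adjusted p = 0.049). It was also lower with shPDK1#2, at 112 CPM (log2 fold change -0.35 ± 0.07 SE, edgeR adjusted p = 0.00025), where 2 genes of the list were lower and 2 higher (16.7% against 26.2%). Of 14 DREAM, MuvB and E2F partner genes, 7 were lower and 4 higher in OSCs (78.6% against 63.9%). By direction, 50% were lower against 31.5% of all genes, and 28.6% were higher against 32.4%. TFDP1, a partner of the E2F factors, was at -0.97, the MuvB subunit LIN37 at 0.97 and E2F4 at -0.90. With shPDK1#2, 1 was lower, LIN52 of MuvB at -0.38, and 2 were higher (21.4% against 26.2%). With shPDK1#1, 0 of the 14 passed by edgeR, against 3.06% of all genes. There 3 of the 14 had an unadjusted p under 0.05 by edgeR, against 2107 of the 14574 genes tested.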

How the data were processed

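RNA was sequenced as paired-end reads on an Illumina instrument. Per the labels and the study's methods, the authors used Trimmomatic 0.39 for trimming, FastQC 0.12.1 for quality checks and STAR 2.7.11a for alignment, with GRCh38.p14 as the genome, and deposited an expected count per gene and library from RSEM 1.3.3, not normalized between libraries. The annotation and strand setting are not given in the sources used here. RSEM divides reads that match several transcripts, and 6.85% and 6.92% of the values in the 2 tables were not whole. All 62700 identifiers were found in GENCODE 44, which gave symbols, coordinates and exons.

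Expected counts were rounded. R 4.3.3 with edgeR 4.0.16 (filterByExpr by condition, TMM, quasi-likelihood test with Benjamini-Hochberg adjustment, threshold 0.05) was used, with 1 fit per table. CPM used TMM-scaled library sizes, and RPKM divided them by the exon union. The alternatives were DESeq2 1.42.0, library size alone, upper quartile factors, no filter, a minimum of 10 counts per library, a block for the replicate number, a fit restricted to the groups under comparison, and each library left out in turn. The samples were grouped by their labels, and 0 columns were left unmapped. The count columns of the non-OSC, OSC and shCtrl libraries had other names than the labels. They were matched by what those names say, which the labels do not spell out.

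The members and the other gene lists were chosen with earlier results of these data known. Any member could be named with its level. Full statistics were given for CCNA2, CCNB1, CDK1, CDC20, PLK1, AURKA, AURKB, BUB1, CENPF, KIF20A, TOP2A, MKI67, FOXM1 and MYBL2, the 3 largest rises and falls past the threshold in each comparison, and at most the 3 largest changes past it in each other list. Statistics of further members were chosen after their values were seen.

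The totals of 7992499 to 11256536 counts per library put 3 counts at 0.268 to 0.373 CPM, far below every member. Each library was counted once. Counting error alone did not account for the differences within replicate pairs (chi-square 1.95 to 3.67 per degree of freedom). The added spread may be technical, so it cannot show that the libraries came from separate cultures. The tests were also run on simulated counts with known changes in 100 genes of each size. These were drawn at random from all genes that passed the filter, whatever their counts, and all other genes were left unchanged. In the data far more genes passed, which loosens the adjusted threshold, so the shares below are not detection rates for the members. At a true log2 change of 0.3, 32 of 100 passed in the right direction for OSCs and 38 of 100 for shPDK1#2. At a true log2 change of 1, 83 and 78 of 100 did. The unchanged genes that passed numbered 19 and 1. Figures were drawn with Python 3.11.15 and matplotlib 3.10.9.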

Additional observations from a re-analysis of the deposited data

Results flagged for a closer look

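The 2 hairpins gave different values for 7 members in the direct test of shPDK1#2 against shPDK1#1, and each of the 7 was lower with shPDK1#2. They were 16.7% of the 42 members, near the 16.3% of all genes tested that passed, 9.78% being lower and 6.5% higher. The libraries of the hairpins did not overlap for 30.7% of all genes. The log2 differences were -0.34 for UBE2C, -0.21 for ECT2, -0.19 for NDC80, -0.17 for KIF23, -0.17 for ANLN, -0.17 for PLK1 and -0.14 for CCNA2, each past an edgeR adjusted p of 0.05 and without overlap between the 3 libraries of each hairpin. Of the 16 alternatives, UBE2C and PLK1 passed in all 16, ECT2, NDC80 and ANLN in 14 each, CCNA2 in 5 and KIF23 in 4, and CCNA2 and KIF23 did not pass by DESeq2. PDK1 mRNA differed in the same contrast, at 28.1 CPM with shPDK1#1 and 19.8 CPM with shPDK1#2 (log2 difference -0.50 ± 0.09 SE, edgeR adjusted p = 0.00024). The part of the PDK1 level, or of the hairpin sequences, in these differences was not tested.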

How the results depend on the processing

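With 3 libraries per group, a member that did not pass may still differ. The cause of each change below was not tested. The median log2 fold change of the members in OSCs (-0.25) was -0.21 with library size alone and -0.29 with upper quartile factors. With shPDK1#2 the median (-0.05) was -0.064 and -0.020 under the same settings, and upper quartile factors gave 7 calls, 6 lower and 1 higher (KIF20A). Over all 14574 genes upper quartile factors gave 3992 calls in that comparison. Between the hairpins, upper quartile factors gave a median of -0.012. When each library was left out in turn, the members higher in OSCs numbered 1 to 2, with 2 without non-OSC replicate 1, where CDK1 passed. The shPDK1#2 comparison gave 7 to 11 calls, all lower, and a median of -0.069 to -0.040. The shPDK1#1 comparison gave a median of -0.043 to -0.012 and 0 calls. The direct comparison of the hairpins gave 2 to 7 calls, all lower, and a median of -0.073 to -0.024. Over all genes the same fits gave 3031 to 4125 calls with shPDK1#2, 245 to 508 with shPDK1#1 and 1721 to 2324 between the hairpins. Of the calls, 23 of 27 in OSCs passed in all 12 alternatives (not CCNA2, CENPE, HMMR and NCAPH), 6 of 11 with shPDK1#2 and 2 of 7 between the hairpins in all 16, and 0 called members changed sign.

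The labels do not say whether replicate numbers pair the libraries, and the main fits treated them as unpaired. Correlations of deviations between libraries of the same number lay between -0.054 and 0.095, and not every library correlated best with its own number. Such weak correlations cannot exclude a pairing. With the replicate number as a block, 30 members passed in OSCs (1 higher, 29 lower), 0 with shPDK1#1, 11 with shPDK1#2 and 8 between the hairpins. Over all genes the block gave 9420 calls of 14287 in OSCs, against 9126 without it. In the hairpin table it gave 507, 3943 and 2522 calls of 14574, against 446, 3812 and 2374, in the same order.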
